A study of Mus musculus with 2 samples.

Results

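The genes described here are 43 genes that copy the genome and divide the cell: 20 genes of DNA replication and the G1/S transition, 20 genes of mitosis and the 3 D cyclins. They were chosen by function, as a list of gene symbols, with earlier results of these data known. A gene was read from the probe set that carries its symbol alone and has the highest mean signal of both arrays. Of the 43, 42 had such a probe set, out of 18194 genes named on the array, and Ccnb1 (cyclin B1) was not analysed here. All 42 passed the level filter, a signal of at least 41.6 in the higher array, which is the median over all named genes and which 9297 genes passed.

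The study set 1 sample labelled KO (knockout) against 1 sample labelled WT (wild type), a comparison of transcript levels by genotype. Both are mouse brain of strain C57BL/6 at stage E10.5, although the sample titles name only the embryo. Total RNA was hybridised to Affymetrix 3' expression arrays. Neither the knocked-out gene nor embryo sex nor any pooling is given in the labels. With 1 array per group there is no replicate error and no test between groups, so every difference is a description of these 2 arrays.

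Dividing cells pass from G1 into S phase when D cyclins and cyclin E, with their kinases, inactivate the retinoblastoma protein and free E2F transcription factors. E2F then drives the genes that load the MCM helicase at origins, open the helix, make nucleotides and run the replication fork. Genes of mitosis follow later, when the DREAM repressor gives way to the B-MYB and FOXM1 complexes that act through the cell cycle homology region (CHR) of their promoters. At this stage the wall of the neural tube is a proliferating neuroepithelium, whose nuclei divide at the ventricular surface while the first neurons leave the cycle.

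What the members share in sequence was read from the RefSeq promoter windows of build GRCm38.p6, each 250 bases before to 50 bases after a gene's start. The table held 36 windows for 34 members. The windows were searched on both strands for the CHR, as TTTGAA or in its other form TTCGAA, which reads the same on both strands and was counted once. The box bound by the NF-Y factor was searched as CCAAT, and the E2F site as TTTCCCGC, TTTGGCGC, TTTGGCGG or TTTCCCGG. Matched words of the members overlap once, where a pair of NF-Y words on opposite strands meet in Ube2c, upstream of the stretch shown. The stretches that follow end before the start, run 5′ to 3′ along the gene's strand and have each matched word in capitals, where ATTGG stands for the NF-Y word, TTCAAA for the first CHR word and GCGCCAAA for an E2F word, each read on the other strand. They are shown because they carry the words that set the replication and mitosis promoters side by side, and because Top2a and Mki67 had the largest differences among the members.
Mcm6 (chr1:128359711-128359830, minus strand): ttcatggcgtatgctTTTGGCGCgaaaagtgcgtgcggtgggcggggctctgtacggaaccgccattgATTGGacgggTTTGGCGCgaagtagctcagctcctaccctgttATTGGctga
Mcm5 (chr8:75109349-75109498, plus strand): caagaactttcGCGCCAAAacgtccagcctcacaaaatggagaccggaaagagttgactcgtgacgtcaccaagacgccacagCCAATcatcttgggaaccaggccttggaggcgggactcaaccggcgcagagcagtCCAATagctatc
Pola1 (chrX:93632181-93632300, minus strand): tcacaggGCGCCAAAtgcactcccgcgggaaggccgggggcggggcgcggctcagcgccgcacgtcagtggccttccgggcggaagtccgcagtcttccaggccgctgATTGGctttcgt
Cdk1 (chr10:69352913-69353002, minus strand): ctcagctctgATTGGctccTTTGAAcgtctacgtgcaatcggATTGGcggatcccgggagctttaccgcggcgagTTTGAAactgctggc
Ube2c (chr2:164769829-164769928, plus strand): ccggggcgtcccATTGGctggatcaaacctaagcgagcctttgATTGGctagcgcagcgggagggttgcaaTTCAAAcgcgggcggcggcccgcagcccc
Top2a (chr11:99024190-99024349, minus strand): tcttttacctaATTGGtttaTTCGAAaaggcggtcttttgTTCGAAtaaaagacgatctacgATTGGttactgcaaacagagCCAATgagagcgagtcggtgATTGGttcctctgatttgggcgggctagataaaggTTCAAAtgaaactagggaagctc
Mki67 (chr7:135716460-135716579, minus strand): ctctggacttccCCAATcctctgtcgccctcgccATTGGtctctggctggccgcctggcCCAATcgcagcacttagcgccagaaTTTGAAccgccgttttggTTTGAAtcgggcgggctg

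TTTGAA was found in 12 of 16 windows of mitosis genes (75%), in 2 of 18 of replication genes (11.1%) and in 17.9% of all 32851 windows. CCAAT was found in 15 of 16 mitosis windows (93.8%), in 12 of 18 replication windows (66.7%) and in 37.4% of all windows. TTTGGCGC was found in 5 of 18 replication windows, those of Mcm3, Mcm5, Mcm6, Pola1 and Cdt1 (27.8%), in 0 of 16 mitosis windows and in 0.514% of all windows. TTTCCCGC was found in the windows of Cdc6, Mcm3 and Mcm7 (16.7% of 18, against 1.07% of all). TTCGAA was found in 3 mitosis windows, those of Bub1, Bub1b and Top2a (18.8%), and in 1 replication window, against 1.56% of all. TTTCCCGG was found in the Aspm window alone among members (1.28% of all), and TTTGGCGG in none of them (0.560% of all). In Mcm6, TTTGGCGC began at positions -110 and -47 from the start, and in Cdk1, TTTGAA began at -71 and -15, with CCAAT words at -208, -80 and -48. A matched word is a description of the letters and not a shown binding site.

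Several other differences ran with the labels of the 2 arrays. Differences here are KO minus WT of log2(signal + 16), a scale that understates changes of dim genes. Xist read 2023 in KO and 5.19 in WT, and the Y-linked Eif2s3y, Kdm5d and Uty read 0.27, 1.22 and 2.21 against 254, 187 and 90.9. A difference of sex cannot be told apart from genotype here. Neural tissue markers were well measured in both arrays, with 11 of 11 progenitor and 13 of 13 early neuron markers above the filter. Of these, 8 progenitor (72.7%) and 10 neuron markers (76.9%) were lower in KO. The same held for 50.2% of genes passing the filter and 62.2% of the brightest 25% of them. The progenitor and neuron medians were -0.064 and -0.18, with summed signals of 12822 against 14048 and 6990 against 7723. All 12 macrophage markers were lower (median -0.75, summed signal 229 against 581), against 49.7% of all named genes. Only 4 of the 12 passed the level filter, and 5 were under a signal of 10 in KO. Of the macrophage markers at least 2-fold apart, C1qb read 17.7 against 68.4 and Mrc1 2.76 against 57.5. Red cell markers had a median of 0.13 with 4 of 10 lower, and a summed signal of 15241 against 16789. Endothelial markers had one of -0.061 with 9 of 10 lower (840 against 918), head mesenchyme markers 0.14 with 3 of 10 lower (2959 against 2890) and neural crest markers 0.13 with 2 of 6 lower (680 against 617). No marker had a signal of exactly 0. The level filter was passed by 8 of 10 red cell, 8 of 10 endothelial, 8 of 10 head mesenchyme and 3 of 6 neural crest markers. Sox10, a neural crest marker below the filter, read 1.75 in KO and 5.47 in WT, while 4 of the 6 neural crest markers were higher in KO. The part of these cell types in the differences of the replication and mitosis genes was not tested. In whole tissue, fewer dividing cells and less RNA per dividing cell cannot be told apart.

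The KO and WT arrays read nearly alike for the replication and mitosis genes. None of the 42 members was 1.5-fold apart, where 1.45% of genes passing the level filter and 0.430% of the brightest 25% of them were, and none was 2-fold apart, against 0.333%. None was 1.2-fold apart either (a size chosen after the values were seen), against 11.0% of genes passing the filter and 4.13% of the brightest 25% of them. With 42 genes these shares allow little to be read from a count of 0 at 1.5-fold. Differences ran from -0.24 in Top2a to 0.17 in E2f1, and 31 of 42 (73.8%) lay within 0.1 log2 units, against 54.3% of genes passing the filter and 66.5% of the brightest 25%.

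**Figure D1:**
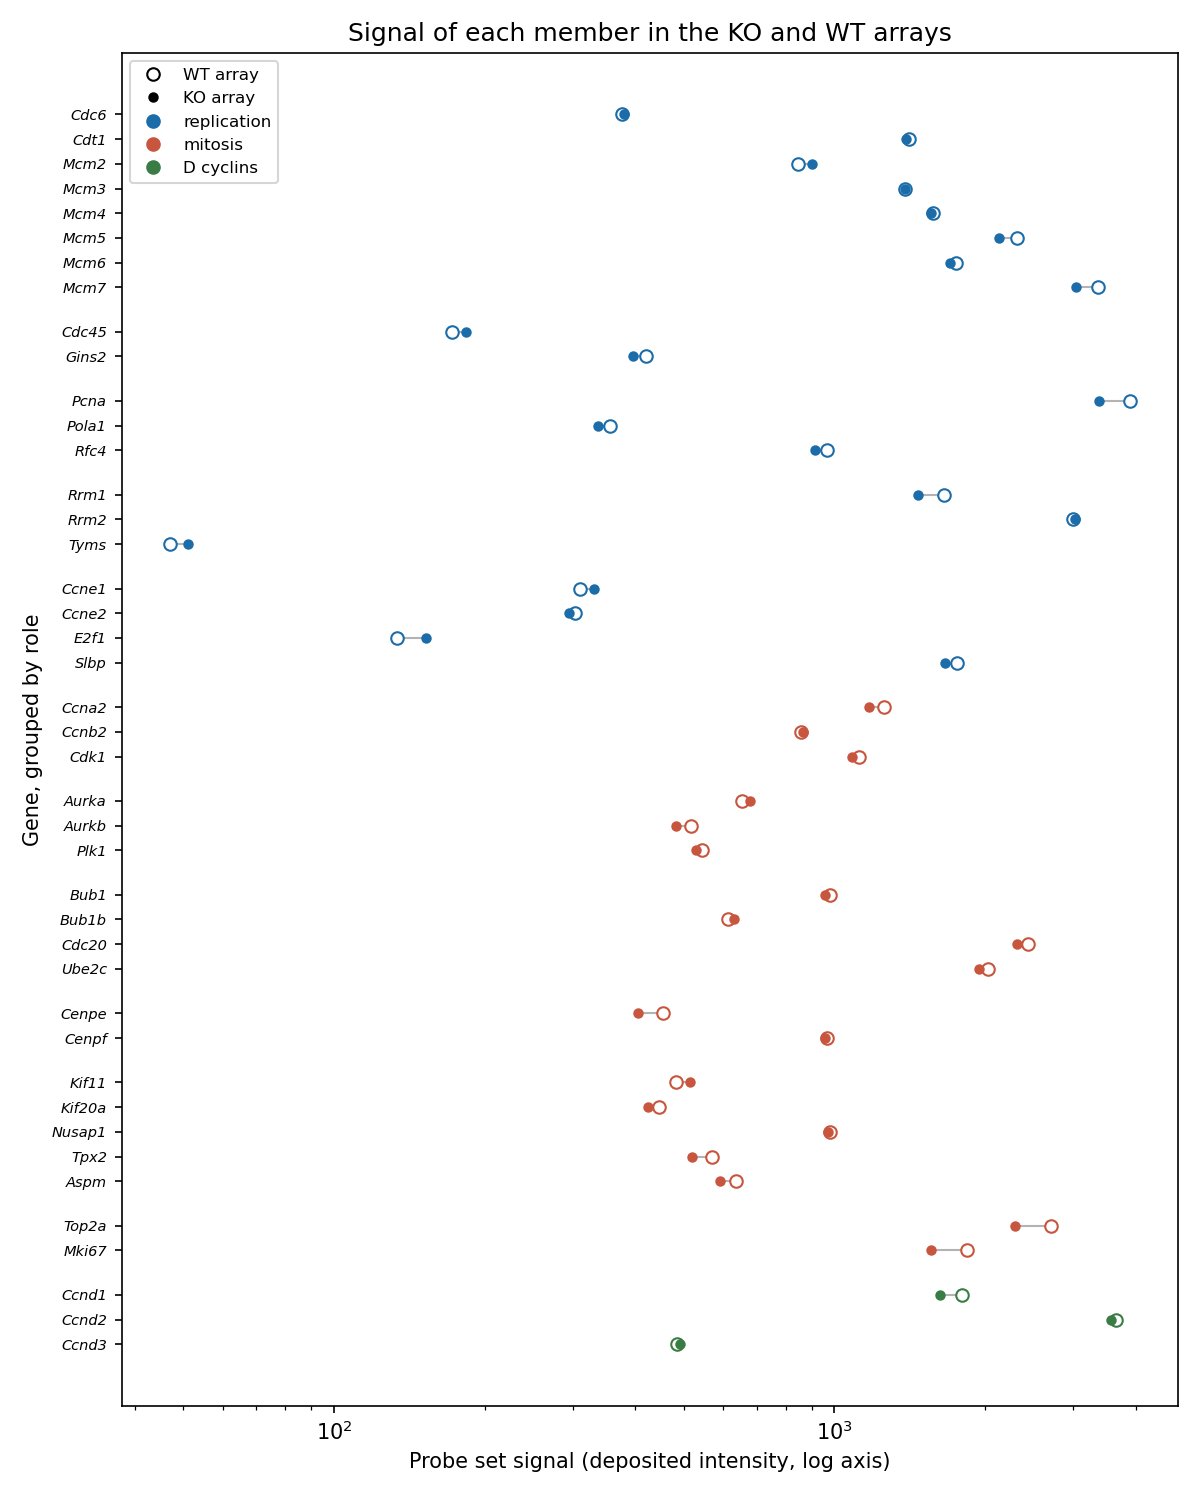
Deposited signal (intensity, log axis) of each of the 42 members, grouped by role, with an open circle for the WT array and a filled one for the KO array. The circles of most genes touch or overlap. The gaps that show best are those of Mki67 (1558 against 1841), Top2a (2295 against 2713) and Pcna (3381 against 3886), with KO lower in each.

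Of the 20 replication and G1/S genes, 13 were lower and 7 higher in the KO array, with a median difference of -0.030 that turned to 0.013 after a loess correction on level. The share lower was 65.0%, against 49.7% of all named genes and 50.2% of genes passing the filter. Of the brightest 25% of genes passing, to which only 12 of the 20 belong, 62.2% were lower, with a median of -0.030. Origin licensing factors load the MCM ring before S phase. Cdc6, an ATPase that helps to load it, read 380 in KO and 377 in WT (0.0097). Cdt1, its partner in loading, read 1390 against 1410 (-0.022). Both loading factors thus gave almost equal signals.

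The 6 subunits of the MCM2-7 helicase went both ways. Mcm2 was higher in KO, at 901 against 846 (0.089), but its second probe set differed by -0.063. Mcm3 read 1384 in both arrays (-0.0011), with 3 further probe sets above the filter at -0.062 to 0.061. In both subunits the probe sets lie on either side of 0. Mcm4 read 1561 against 1576 (-0.014), with a second probe set at 1246 against 1082 (0.20), and Mcm6 read 1704 against 1748 (-0.038), with one at 0.027. Mcm5 read 2128 against 2316 (-0.12), but its other probe sets above the filter differed by 0.085 and 0.074. Mcm7 read 3037 against 3357 (-0.15), a value that was -0.050 after quantile normalisation and -0.065 after the loess, and its 3 other probe sets gave -0.044, -0.021 and -0.0059. In Mcm7 all 4 probe sets were lower, while in Mcm5 the probe sets disagreed in sign.

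Cdc45 and the GINS complex activate the loaded helicase. Cdc45 read 184 against 172 (0.086), with KO higher, but a dim probe set below the filter gave -0.039. The GINS subunit gene Gins2 read 396 against 421 (-0.086), with KO lower. The second probe set of Gins2 gave -0.085. At the fork, all 3 members were lower in KO. Pcna, the sliding clamp that holds the polymerases, read 3381 against 3886 (-0.20) on its only probe set and -0.083 after quantile normalisation. Rfc4, a subunit of the clamp loader, read 913 against 968 (-0.083). Pola1, the catalytic subunit of the primase-polymerase and the member on chromosome X, read 337 against 356 (-0.076).

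The nucleotide supply genes went both ways. Rrm1, the large subunit of ribonucleotide reductase, read 1471 against 1655 (-0.17), while another probe set gave -0.13. Rrm2, the small subunit, read 3025 against 2991 (0.016), while its other probe sets differed by -0.12 and -0.22. Tyms, thymidylate synthase, rested on a dim probe set at 51.2 against 46.9 (0.094). A brighter one that carries both Tyms and its pseudogene read 501 against 504 (-0.0097), so the value of Tyms is uncertain.

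Of the G1/S regulators, E2f1, which encodes an E2F activator, was the highest of all members at 153 against 134 (0.17), but its second probe set read 107 against 122 (-0.17). The opposite signs leave E2f1 without a direction in these arrays. Ccne1 (cyclin E1) behaved likewise, at 331 against 310 (0.089) on one probe set and -0.098 on the other. Ccne2 (cyclin E2) read 295 against 304 (-0.042). Slbp, which binds the stem-loop of histone mRNA, read 1661 against 1758 (-0.082), and its other probe set above the filter gave -0.050.

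Of the 19 mitosis genes measured, 15 were lower and 4 higher in KO, with a median difference of -0.061. The share lower was 78.9%, against 50.2% of genes passing the filter and 62.2% of the brightest 25%, to which 18 of the 19 belong. The median stayed below 0 after quantile normalisation (-0.027) and after the loess (-0.017), with 14 and 13 of the 19 genes lower. Of the brightest 25%, 52.8% and 50.2% were then lower, with medians of -0.0062 and -0.00033. The mitosis median minus the replication median was -0.032.

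Mitotic entry rests on Cdk1 and its cyclins. Cdk1 read 1084 against 1122 (-0.050). Ccna2 (cyclin A2) read 1175 against 1259 (-0.099), and its second probe set gave -0.11. Ccnb2 (cyclin B2) read 863 against 859 (0.0062), and -0.0051 after quantile normalisation. Ccna2 was therefore the lowest of the 3, on both of its probe sets. Among the mitotic kinases, Aurka, which acts at centrosomes, read 679 against 652 (0.055). Aurkb, the kinase of the chromosomal passenger complex, read 483 against 518 (-0.10), with -0.16 on its other probe set. Plk1, which acts throughout mitosis, read 529 against 543 (-0.037). Aurka has a second, dim probe set below the filter, and it read -0.049 with the mean of all probe sets and -0.15 with the median one, so its direction depends on the probe set.

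Checkpoint genes, which hold anaphase until all chromosomes are attached, differed little. The checkpoint kinase gene Bub1 read 957 against 978 (-0.031), and a dimmer probe set gave 0.19. Bub1b (BubR1) read 629 against 614 (0.033). Cdc20, which activates the anaphase-promoting complex, read 2317 against 2440 (-0.075), and its 3 probe sets were all lower. Ube2c, the ubiquitin-conjugating enzyme of that complex, read 1942 against 2025 (-0.061). Of the kinetochore genes, Cenpe, a motor that carries chromosomes to the spindle equator, read 404 against 455 (-0.17), but 0.099 on its second probe set. Cenpf read 956 against 966 (-0.016), with dimmer probe sets at 0.086 and 0.10.

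Spindle genes were lower in 4 of 5 cases. Kif11, the motor that pushes spindle poles apart, was the exception at 514 against 481 (0.090). Kif20a, a motor needed for cytokinesis, read 424 against 447 (-0.076), and Nusap1, a microtubule bundling protein, 972 against 982 (-0.016). Nusap1 turned to 0.011 after quantile normalisation and to 0.012 after the loess. Tpx2, which activates Aurora A on the spindle, read 520 against 569 (-0.13) but 0.0044 on its second probe set. Aspm, a spindle pole protein whose loss causes microcephaly, read 591 against 636 (-0.10), and a dim probe set gave -0.26.

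Top2a and Mki67 were the lowest of all members. Top2a, the topoisomerase that untangles sister chromatids, read 2295 in KO and 2713 in WT (-0.24), and its dimmer probe set read 107 against 147 (-0.40). Mki67, the Ki-67 protein gene that coats mitotic chromosomes and marks cycling cells, read 1558 against 1841 (-0.24) on its only probe set. In both genes the KO signal was 84.6% of the WT signal. They remained lower after quantile normalisation and the loess, where the lowest value of any member was Mki67's, at -0.20 and -0.19.

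The D cyclins, which link growth factor signals to the cycle, had a median of -0.033 that turned to 0.031 both after quantile normalisation and after the loess. Ccnd1 read 1626 against 1801 (-0.15), and its 2 other probe sets gave -0.35 and -0.14. Ccnd1 was lower on all 3 probe sets, and it kept that sign under 7 alternatives (-0.21 to -0.095). Ccnd2, abundant in the neuroepithelium, read 3574 against 3654 (-0.033). Its 7 probe sets ran from -0.095 to 0.26 on the same pair of samples. Ccnd3 read 493 against 484 (0.025). The probe sets of Ccnd2 thus lay on either side of 0.

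**Figure D2:**
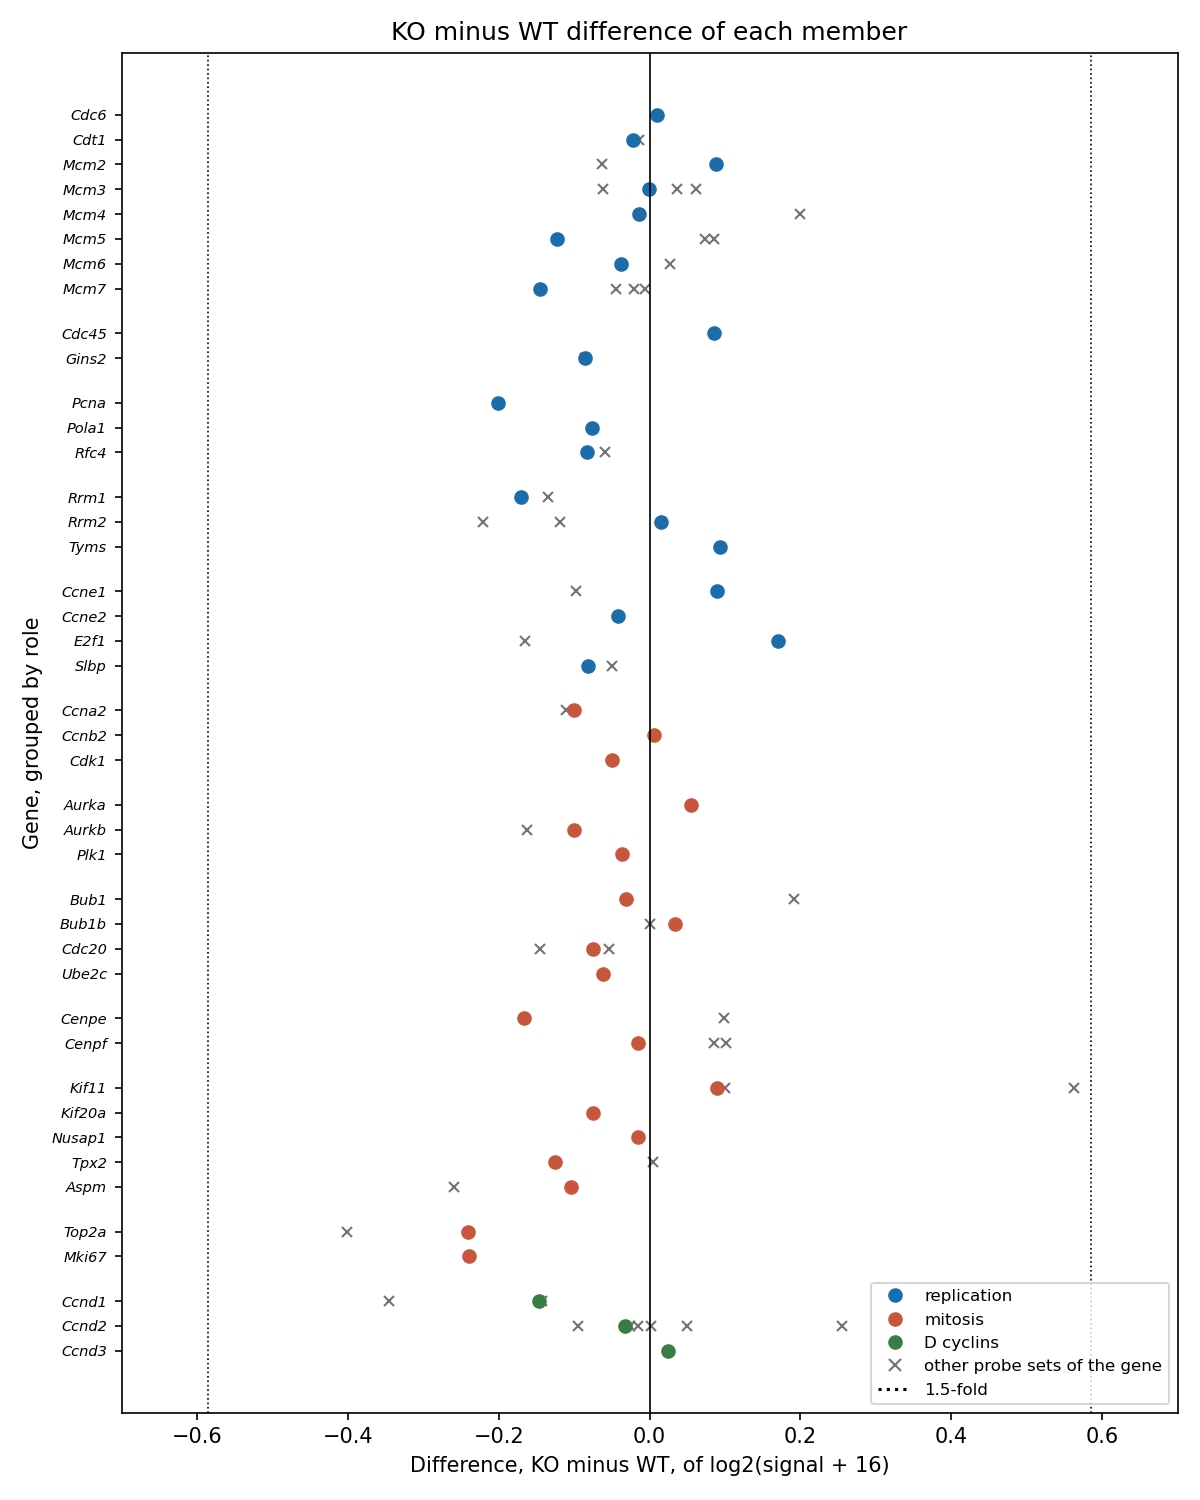
Difference of log2(signal + 16), KO minus WT, for each of the 42 members, grouped by role (filled circles, coloured by gene set), with the gene's other probe sets above the level filter as crosses and 1.5-fold as dotted lines. All circles lie between -0.24 and 0.17, while a cross of Kif11 reaches 0.56 and one of Top2a -0.40.

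Probe sets of one gene often disagreed, and the cause was not tested. Of the 27 members that have 2 or more probe sets past the filter, 12 were lower on all of them, 2 were higher on all and 13 had both signs. These counts were not made over all named genes, so they have no background share. On the probe set used for each gene, 62.2% of the 2324 brightest genes passing the filter were lower in KO. The SD between probe sets of a gene was 0.11 over these 27 members and 0.16 over all named genes. Of the 42 members, 10 (23.8%) differed by more than the first, against 40.1% of genes passing the filter and 651 of the 2324 brightest. Only 2 members (Top2a and Mki67, 4.76%) differed by more than 2 times it, against 14.7% of genes passing the filter and 6.45% of the 2324 brightest. By more than the SD over all named genes, 6 members (14.3%) differed, against 25.7% and 14.6%. None differed by more than 2 times that SD, against 6.62% and 2.24%. The probe sets share the same 2 RNA samples, so their agreement says nothing about animals. Among the 12 members lower on all probe sets past the filter, the replication genes are Mcm7, Cdt1, Gins2, Rrm1, Rfc4 and Slbp. The mitosis genes are Ccna2, Aurkb, Cdc20, Aspm and Top2a, and the D cyclin is Ccnd1.

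Brightness went along with the sign of the difference. Of 18 members with a mean signal of at least 1000 (a split chosen after the values were seen), 17 were lower in KO, with a median of -0.079. The exception was Rrm2. Of the 24 dimmer members, 13 were lower, with a median of -0.016. Over all genes passing the filter, 74.0% of those at or above 1000 were lower, with a median of -0.058, and 47.7% of those below it. Across the 42 members the correlation of level and difference was -0.55 (Pearson) and -0.44 (Spearman), points that share the same 2 arrays. After the loess, 23 of 42 members were lower, against 49.9% of genes passing the filter, and after quantile normalisation 26 of 42.

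**Figure D3:**
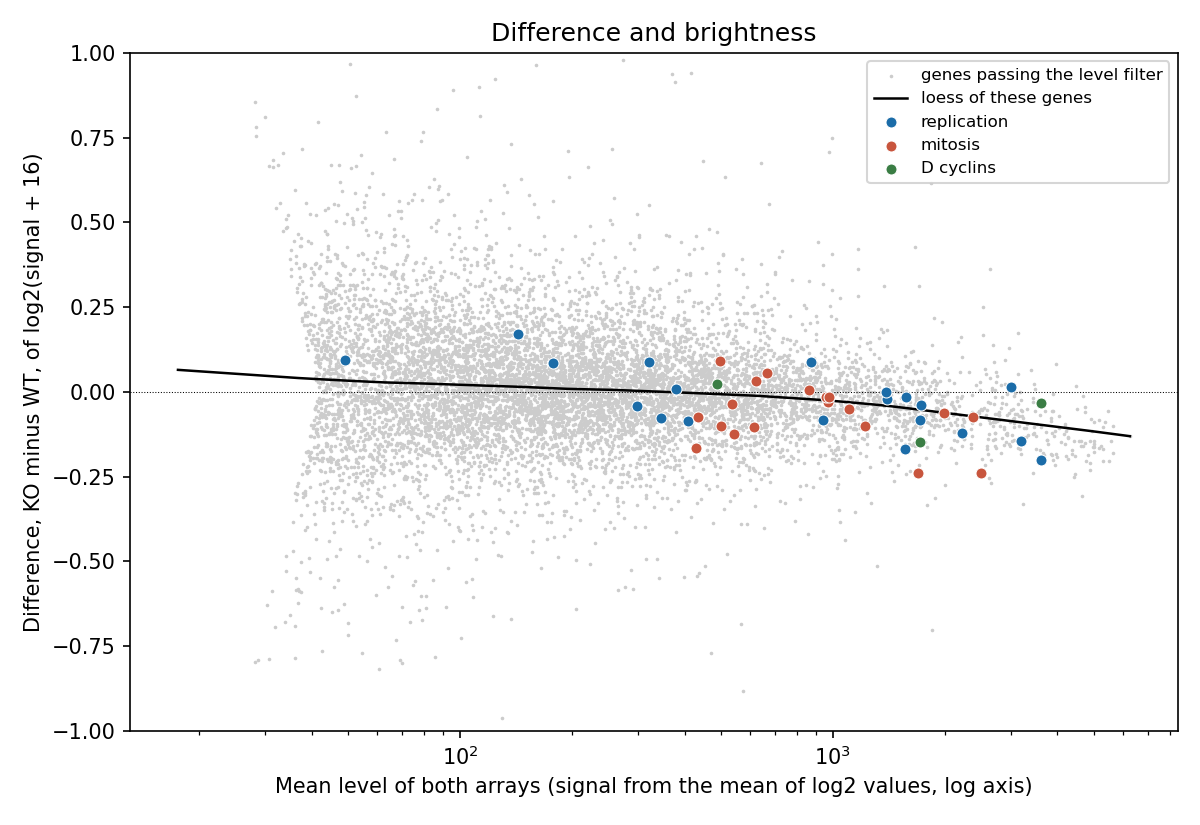
Difference of log2(signal + 16), KO minus WT, against the mean level of both arrays (log axis), for genes passing the level filter (grey), their loess (line) and the members (coloured by gene set). The line runs below 0 at high levels, and most members lie on that side. The 31 genes over 1 log2 unit apart are not drawn.

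**Figure D4:**
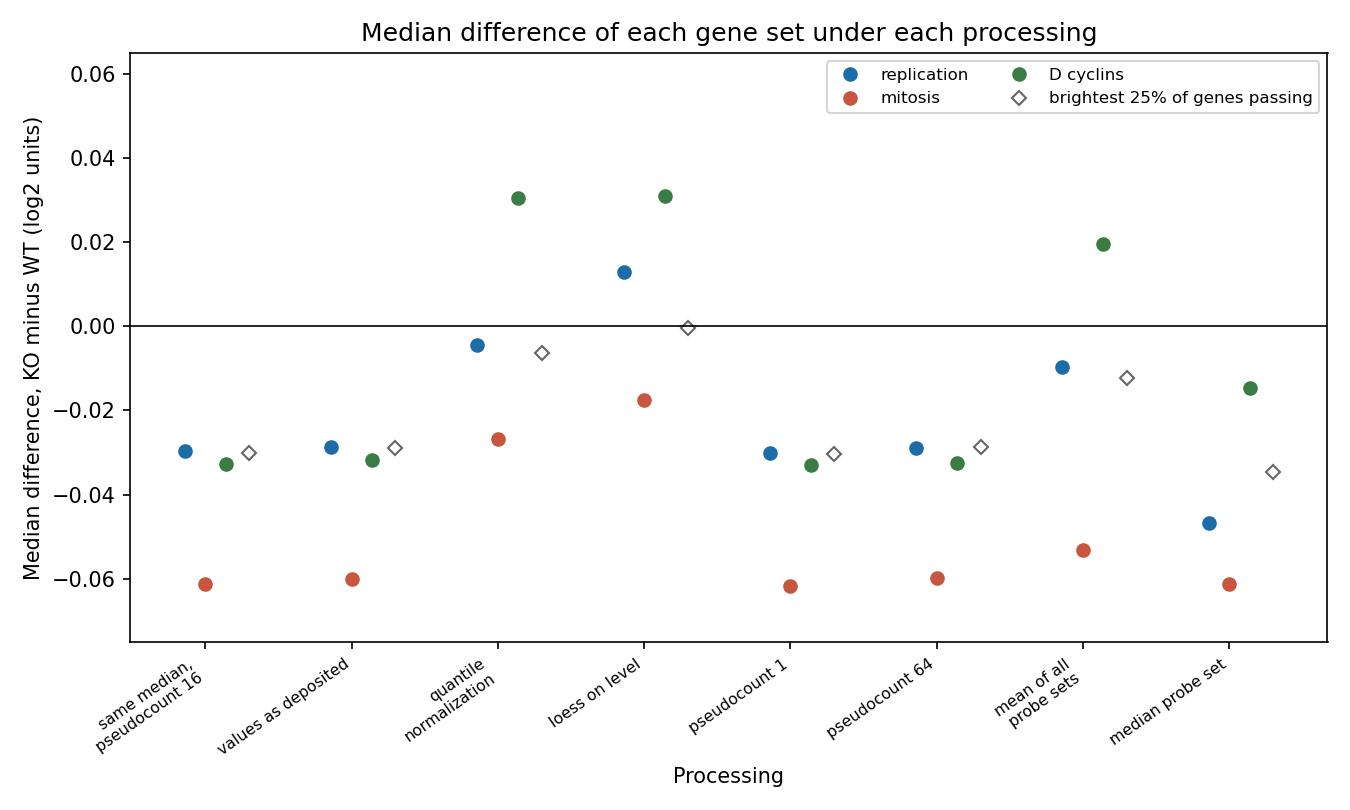
Median difference, KO minus WT (log2 units), of the replication, mitosis and D cyclin genes and of the brightest 25% of genes passing the level filter, under each processing. The mitosis median is below 0 throughout, from -0.062 to -0.017, and so is that of the brightest 25%, from -0.035 to -0.00033. The replication median reaches 0.013 and the D cyclin median 0.031.

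Other genes of the same processes were listed by function. Of 48 further replication genes measured, 26 were lower and 22 higher, with a median of -0.017. The share lower was 54.2%, against 50.2% of genes passing the filter and 62.2% of the brightest 25%. None was 1.5-fold apart, against 1.45% of genes passing the filter. Prim2, a primase subunit, read 363 against 317 (0.18), with 0.11 on its second probe set, and Orc2, of the origin recognition complex, 247 against 224 (0.14), with -0.090 and -0.11 on its other probe sets. Orc6, another subunit of that complex, read 541 against 630 (-0.22). Pold3, a subunit of DNA polymerase delta, read 437 against 487 (-0.15), but its other probe sets read 473 against 268 (0.78) and 119 against 164 (-0.42). The probe sets of Pold3 and Orc2 thus disagreed in sign.

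Of 69 further mitosis genes, 66 passed the level filter. Of all 69, 43 were lower (62.3%, against the same 50.2% and 62.2%) and 26 higher, with a median of -0.030. Only 1 was 1.5-fold apart (1.45% of genes passing the filter were). That gene was Pttg1, the securin that holds separase in check until anaphase. It read 1445 against 2360 (-0.70), and its other probe sets read 357 against 674 (-0.89) and 30.8 against 40.4 (-0.27). Pttg1 was lower on all 3 probe sets, the dimmest of them below the level filter. Ckap5, a microtubule polymerase, read 442 against 538 (-0.28) and was lower too on its dim probe sets, which are below the filter. Kif18a, a motor that limits chromosome movement, read 258 against 219 (0.22), but -0.11 on a dim probe set below the filter. The kinetochore gene Cenph read 261 against 222 (0.21).

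Of 35 regulators of the cycle, 26 were lower and 9 higher. The share lower was 74.3%, against 50.2% of genes passing the filter and 62.2% of the brightest 25%. The median of the regulators was -0.066, -0.061 after quantile normalisation and -0.059 after the loess. Of the 35, 31 passed the level filter, with a median of -0.074, and the dimmer rest were all counted as lower. Cdkn1c, the imprinted CDK inhibitor p57, read 739 against 993 (-0.42) on its only probe set. Ccng1 (cyclin G1), a target of p53, read 448 against 523 (-0.22), with -0.29 and -0.39 on its other probe sets. Cdkn1a, the CDK inhibitor p21, differed the other way at 80.8 against 62.8 (0.30), with 0.31 on its second probe set. Myc, a driver of G1 progression, read 80.5 against 60.1 (0.34). Cdkn1c was thus the lowest and Myc the highest of these regulators that passed the filter. None of the 35 was 1.5-fold apart, against 1.45% of genes passing the filter.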

How the data were processed

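The deposited intensity values, on a linear scale, cover 45101 probe sets on 2 arrays and came from Affymetrix Expression Console, per the submitters' processing notes. Its version and summary algorithm were not given in the sources used here. The mean of each array without its lowest and highest 2% of values was 100.0, so the deposited values share a global scale, and they were not quantile normalised. Labelling started from 250 ng of RNA, per the labels' protocols. With 1 array per group, their number limits the precision.

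The arrays were brought to a common median (ratio before scaling 1.001) and taken as log2(signal + 16). Symbols came from the platform annotation: 34958 probe sets had 1 symbol, 932 several, 9160 were unnamed here and 64 were controls. Of the 34958, 34754 matched RefSeq (GRCm38.p6) by Entrez number. Members and lists were chosen with earlier results of these data known. Named genes were all members and, of 3 lists of further genes, the 2 highest and 2 lowest differences above the level filter and any gene 1.5-fold apart. Markers were named if 2-fold apart and above it. Sox10 was named after its values were seen. Alternatives covered scaling, pseudocount, probe set, filter and summary. The steps were tested on simulated data. Scripts ran in Python 3.11.15 with pandas 2.3.3 and numpy 2.4.6 for tables, statsmodels 0.14.6 for the loess, scipy 1.17.1 for correlations and matplotlib 3.10.9 for plots.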

Additional observations from a re-analysis of the deposited data

How the results depend on the processing

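No paired analysis was possible because KO and WT have only 1 array each, which also leaves no replicate to drop. The mitosis value was below 0 under all 10 alternatives run on it, from -0.066, a mean over members in place of the median, to -0.017. Keeping only members above the level filter could not change it, because all of them passed. The median of the brightest 25% was also below 0 under the 7 alternatives that recompute members (-0.035 to -0.00033). No member was 1.5-fold apart under any of these 7. Without replicates, a value was taken to have moved when it changed by over 0.1 log2 units, when a median changed sign or when a count changed by over 1.5 times. The replication median was 0.013 after the loess. The D cyclin median was 0.031 after quantile normalisation, 0.031 after the loess and 0.020 with the mean of all probe sets, each with 1 of the 3 genes lower. Over all genes, 228 were 1.5-fold and 54 were 2-fold apart with a pseudocount of 1. A pseudocount of 64 gave 46 and 13, against 135 and 31 as reported. Without a level filter 285 were 1.5-fold apart. Of the 42 members, 25 kept their sign under all 7 alternatives, 21 lower and 4 higher, a count that was not made over all genes. Of single members, Pcna moved to -0.083 and Ccnd2 to 0.084 after quantile normalisation. With the mean of all probe sets 8 members moved, 5 of them to the other sign, such as Mcm4 (0.093) and Rrm2 (-0.11), while Kif11 became the highest at 0.25. With the median probe set 9 moved, 8 to the other sign, such as Aurka (-0.15), Mcm5 (0.074), Rrm2 (-0.12) and Mcm2 (-0.063). Leaving out probe sets of the _x_at kind, which can bind related sequences, was chosen after seeing the data and gave -0.038 for replication and -0.050 for mitosis, a difference of -0.012. Tyms rests on a dim signal.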

Other observations

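The third probe set of Kif11 read 86.2 in KO and 53.2 in WT (0.56), while the brighter ones of this spindle motor gene gave 0.090 and 0.10. This probe set was singled out after its values were seen.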
